A study of Rattus norvegicus with 18 samples.

Results

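Slc4a4, Slc9a3, Car4, Glud1 and Slc38a3 serve the recovery of bicarbonate and the making of ammonia in the proximal tubule of the kidney. They were taken from the deposited gene table by exact gene symbol. Each symbol had a single row there, so the set is 5 of 30957 genes, and all 5 had counts in all 18 libraries and passed the filter on low counts. The libraries are poly(A) RNA sequencing of rat renal parenchyma after unilateral ureteral obstruction (UUO): under ketamine the abdomen was opened, and the ureter of the left kidney was tied with silk. Obstruction lasted 1 day in 5 libraries, 3 days in 5, 7 days in 5 and, by the labels, 14 days in 3. All 18 share the surgery, the tissue and a single batch label. The design also names a sham group, but none of the 18 libraries is labelled as sham, and all comparisons are between durations of obstruction. The labels do not tie each library to an animal of its own, and p-values measure only the spread between libraries.

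The proximal tubule takes back most of the filtered bicarbonate. The sodium-proton exchanger NHE3 (Slc9a3) secretes acid across the brush border, carbonic anhydrase IV (Car4), anchored on the outer face of that membrane, speeds the turnover of carbonic acid there, and the sodium-bicarbonate cotransporter NBCe1 (Slc4a4) carries bicarbonate out on the blood side. The same cells make new bicarbonate by breaking down glutamine: SNAT3 (Slc38a3) brings glutamine in from the blood, and glutamate dehydrogenase (Glud1), a mitochondrial enzyme found in most tissues, releases ammonia from the glutamate made of it.

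The 3 libraries labelled 14 days stood apart from the other 15 in ways that touch every value given for them. Havcr1, the gene of the shed injury marker KIM-1, was at 1.52, 7.45 and 0.317 FPKM in replicates 1, 2 and 3 labelled 14 days, against 188 to 1040 FPKM in the other libraries. The summed level of 23 proximal tubule markers was 626, 9370 and 236 FPKM in the same 3 replicates, against 1265 to 6710 FPKM in the other 15, with no marker at 0 in any library. Within replicate 2 labelled 14 days the markers split: Slc7a13 and Kap reached 1764 and 2214 FPKM, while Slc5a2 and Slc5a12 were at 6.30 and 0.588 FPKM. Replicates 1 and 3 labelled 14 days had Aqp2, the collecting duct water channel, at 694 and 777 FPKM and the adipocyte gene Fabp4 at 123 and 1522 FPKM. The collecting duct markers split in replicate 3, where Aqp3 and Avpr2 were at 466 and 61.5 FPKM. Scnn1b, Scnn1g and Hsd11b2 were at 0.616, 0.305 and 2.50 FPKM there, against 26.0, 19.3 and 145 FPKM in replicate 1. Replicate 5 of day 1 also had Aqp2 at 371 FPKM and the lowest proximal sum of the first 15, 1265 FPKM. Transcripts of the mitochondrial genome made up 14.4% to 27.4% of counts in the libraries labelled 14 days and 7.11% to 13.6% in the others, and library totals ran from 5488540 to 12049915 counts. The durations of 1, 3 and 7 days were therefore fitted both with and without the libraries labelled 14 days.

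In the deposited annotation, whose build is not named, Slc4a4 (ENSRNOG00000003134) spans bases 20479323 to 20920286 of chromosome 14 on the minus strand, and Slc9a3 (ENSRNOG00000015159) bases 31734327 to 31777070 of chromosome 1 on the minus strand. Car4 (ENSRNOG00000002916) lies on chromosome 10 from 72272248 to 72281067 and Glud1 (ENSRNOG00000057367) on chromosome 16 from 10662021 to 10695557, both on the plus strand. Slc38a3 (ENSRNOG00000016827) lies on chromosome 8 from 116406241 to 116422366 on the minus strand. The table of promoters from RefSeq, on the build GRCr8, matched Slc4a4, Slc9a3, Car4 and Glud1. Their promoters are shown to set the start regions of these 4 genes side by side, with the boxes that each holds. Each runs from 250 bases before to 50 bases after the annotated start, 5′ to 3′ on the gene's strand, with capitals marking the boxes found.
Slc4a4, chr14:19468233-19468532, minus strand: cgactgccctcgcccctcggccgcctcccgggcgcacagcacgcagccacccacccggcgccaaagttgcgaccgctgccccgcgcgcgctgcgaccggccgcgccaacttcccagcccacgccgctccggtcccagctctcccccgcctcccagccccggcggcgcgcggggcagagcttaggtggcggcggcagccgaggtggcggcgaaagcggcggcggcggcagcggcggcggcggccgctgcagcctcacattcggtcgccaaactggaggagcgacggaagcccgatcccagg
Slc9a3, chr1:30995953-30996252, minus strand: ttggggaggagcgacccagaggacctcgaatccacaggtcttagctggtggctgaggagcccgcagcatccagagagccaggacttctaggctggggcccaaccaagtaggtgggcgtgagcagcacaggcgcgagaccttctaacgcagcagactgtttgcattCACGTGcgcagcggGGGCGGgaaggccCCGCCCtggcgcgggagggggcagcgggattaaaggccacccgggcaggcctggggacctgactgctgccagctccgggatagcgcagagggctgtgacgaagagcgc
Car4, chr10:70325108-70325407, plus strand: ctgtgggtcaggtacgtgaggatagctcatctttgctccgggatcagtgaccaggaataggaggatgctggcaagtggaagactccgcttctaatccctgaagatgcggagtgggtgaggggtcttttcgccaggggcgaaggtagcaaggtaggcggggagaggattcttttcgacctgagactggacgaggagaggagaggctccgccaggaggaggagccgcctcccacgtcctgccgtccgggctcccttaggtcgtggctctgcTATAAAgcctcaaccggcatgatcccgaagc
Glud1, chr16:9646319-9646618, plus strand: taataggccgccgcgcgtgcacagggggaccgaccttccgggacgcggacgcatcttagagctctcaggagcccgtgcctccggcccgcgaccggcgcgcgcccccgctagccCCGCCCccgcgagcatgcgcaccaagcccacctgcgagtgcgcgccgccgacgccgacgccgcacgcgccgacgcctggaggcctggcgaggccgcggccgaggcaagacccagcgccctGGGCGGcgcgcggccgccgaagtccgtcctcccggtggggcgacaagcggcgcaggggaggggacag
Both strands were searched for the TATA box as TATAAA, the GC box as GGGCGG and the E-box as CACGTG. The HNF1 core as GTTAAT and the HNF4 site as CAAAGTCCA were searched for too. The Slc9a3 window held an E-box, at bases 166 to 171, and a GC box on each strand, at bases 180 to 185 and 193 to 198, with no overlap between them. In the Car4 window the TATA box lay past the annotated start, at bases 270 to 275, and the Glud1 window held a GC box on each strand, at bases 114 to 119 and 234 to 239. None of these motifs was in the Slc4a4 window, and neither the HNF1 core nor the HNF4 site was in any of the 4 windows. Among all 33469 promoters of this length, the TATA box was present in 14.22%, the GC box in 33.06% and the E-box in 6.42%. The HNF1 core was present in 7.45% and the HNF4 site in 0.39%. G and C made up 78.0% of the Slc4a4 window, 66.7% of the Slc9a3 window, 59.7% of the Car4 window and 78.0% of the Glud1 window, against a median of 51.7% over all promoters.

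Levels are given in FPKM, the deposited read counts scaled by gene length and library total, which can be compared between genes. Glud1 was the most abundant of the 5 genes in each of the 15 libraries of 1, 3 and 7 days, and the order Glud1, Car4, Slc4a4 held in 14 of those 15. Slc4a4 in turn was above both Slc9a3 and Slc38a3 in all 15. The exception was replicate 4 of day 1, with Car4 at 87.7 FPKM and Slc4a4 at 88.0 FPKM. The ranges of Car4 and Slc4a4 overlapped at 1 day, at 82.0 to 147 and 34.5 to 88.0 FPKM, and at 3 days, at 73.7 to 107 and 33.3 to 78.6 FPKM, although Car4 was above Slc4a4 in every 3-day library. The 2 least abundant genes did not separate: Slc38a3 was above Slc9a3 in 8 of the 15 libraries. In all 3 libraries labelled 14 days Slc4a4 was the lowest of the 5, and Glud1 remained the highest.

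**Figure D1:**
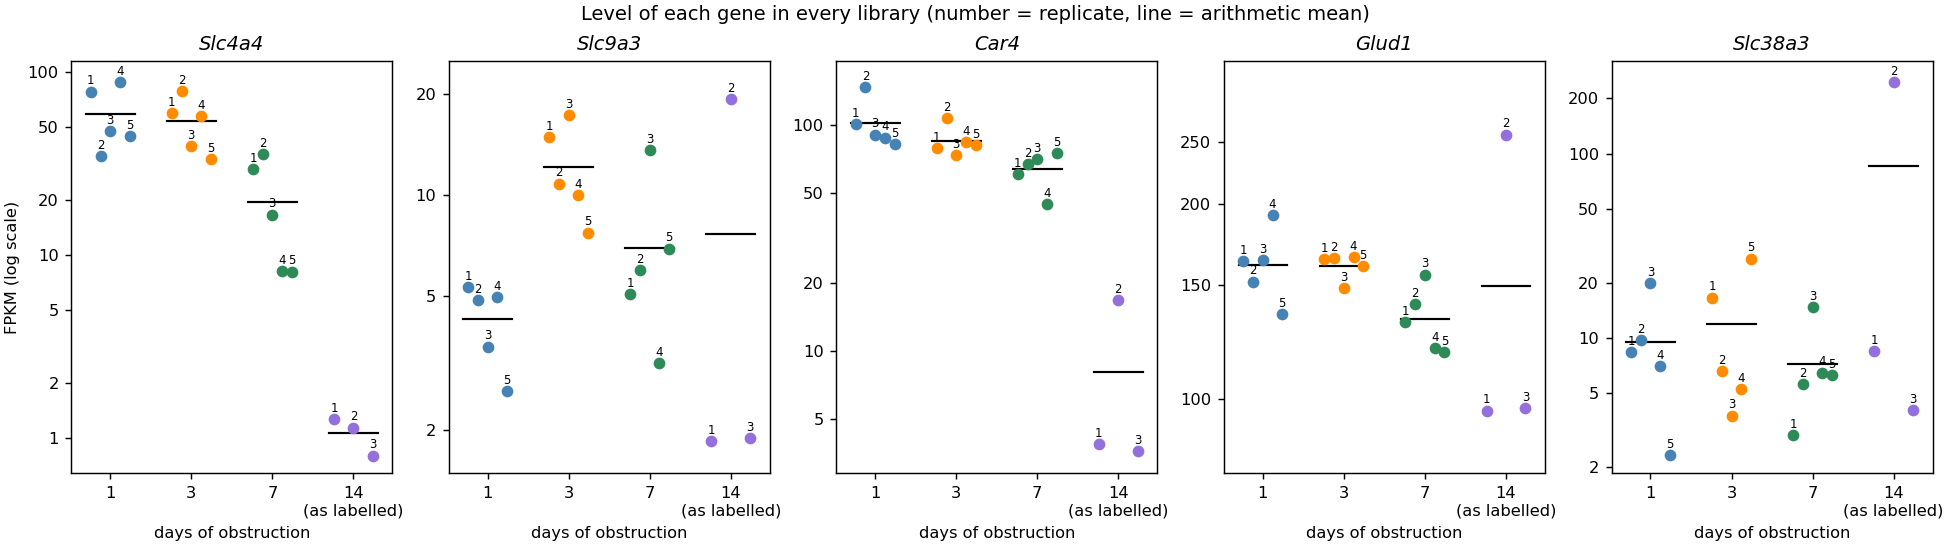
FPKM of each gene (log axis) in every library at 1, 3, 7 and, as labelled, 14 days; points are libraries numbered by replicate and lines are arithmetic means. Slc4a4 is near 1 FPKM in all 3 libraries labelled 14 days, while Slc38a3 is at 245 FPKM in replicate 2 of that group alone.

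Slc9a3, the apical acid secretor, had its highest levels among the first 3 durations at 3 days, where every library was above every library of 1 day. It was at 5.34, 4.87, 3.54, 4.98 and 2.61 FPKM in replicates 1 to 5 of day 1, at 14.9, 10.8, 17.3, 10.0 and 7.73 FPKM at 3 days, and at 5.06, 5.98, 13.6, 3.16 and 6.93 FPKM at 7 days. The 3-day and 1-day libraries did not overlap, and the 7-day libraries overlapped with both. In the comparison of 3 with 1 day 4.98% of tested genes were higher without overlap. The mean was 12.1 ± 3.86 FPKM at 3 days and 4.27 ± 1.15 FPKM at 1 day (SD, n = 5 each). The log2 fold change, 1.50 ± 0.60 (SE), did not pass in the fit of all 18 libraries (edgeR quasi-likelihood test, Benjamini-Hochberg adjusted p = 0.201). Without the libraries labelled 14 days the same fold change had an SE of 0.35 and passed (adjusted p = 0.0174, edgeR), and with replicate 5 of day 1 left out too it was 1.35 ± 0.36 (adjusted p = 0.0254, edgeR). The log2 fold change of Slc9a3 at 7 days was -0.86 against 3 days and 0.64 against 1 day, and neither passed with or without the libraries labelled 14 days. Slc9a3 transcript at 7 days, 6.95 ± 3.98 FPKM, leaned on replicate 3, whose 13.6 FPKM was the only value of that group within the 3-day range.

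Proximal markers as a group were at higher levels in the 3-day libraries too. The summed FPKM of the 23 proximal markers was 2265 to 6710 at 3 days and 1265 to 3016 at 1 day, and 22 of the 23 had a positive log2 fold change at 3 days, with a median of 0.73 against -0.01 over all tested genes, although none passed the test in the fit of all 18 libraries and 2 did without those labelled 14 days. In bulk tissue, fewer cells of a type and less RNA per cell cannot be told apart. Measured against the mean of these markers on the log2(FPKM+1) scale, Slc9a3 was at a difference of -2.72 ± 0.32 at 3 days and -3.09 ± 0.31 at 1 day (SD, n = 5 each), and at -3.22 ± 0.17 at 7 days. All 15 libraries lay between -3.42 and -2.25, the narrowest band of the 5 genes. The part of the marker change in the result was not tested.

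Car4, the brush-border carbonic anhydrase, was at its highest at 1 day and lower in every library at 7 days. Replicates 1 to 5 gave 101, 147, 90.6, 87.7 and 82.0 FPKM at 1 day, 79.1, 107, 73.7, 83.5 and 81.6 FPKM at 3 days, and 60.7, 66.8, 70.7, 44.4 and 74.7 FPKM at 7 days. The 7-day libraries did not overlap with the 1-day libraries, a pattern shown in the lower direction by 6.9% of tested genes in that comparison, and 1 of the 5, replicate 5, reached into the 3-day range. Car4 averaged 63.5 ± 11.8 FPKM at 7 days and 102 ± 26.4 FPKM at 1 day (SD, n = 5 each). The log2 fold change was -0.77 ± 0.37 (SE, adjusted p = 0.138, edgeR, all 18 libraries). Without the libraries labelled 14 days it was -0.78 ± 0.18 and passed (adjusted p = 0.00410, edgeR). Between 3 and 1 day the difference was -0.28 and between 7 and 3 days -0.49 on the log2 scale, and neither passed in either fit. The 147 FPKM of replicate 2 at 1 day lay far above the other 4 libraries of its group.

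Relative to the proximal markers, Car4 was lower already at 3 days. The difference on the log2(FPKM+1) scale was 0.03 ± 0.62 at 3 days, 1.19 ± 0.37 at 1 day and -0.09 ± 0.32 at 7 days (SD, n = 5 each). The marker mean itself was 5.46, 6.39 and 6.08 at 1, 3 and 7 days, and a higher mean lowers every gene on this scale. Glud1 was lower at 3 days too, at 0.95 against 1.87, as were Slc4a4 and Slc38a3, while Slc9a3 was higher. The 7-day libraries of Car4 were all below its 1-day libraries on this scale too, at -0.65 to 0.13 against 0.94 to 1.81. The share of all genes that did so was not computed, and the part of the marker mean was not tested.

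Slc4a4, the basolateral bicarbonate exit, gave the largest change among the 5 genes over the first 3 durations and was lower at 7 days than at 1 day. It stood at 77.9, 34.5, 47.2, 88.0 and 44.4 FPKM in replicates 1 to 5 of day 1, at 59.5, 78.6, 39.3, 57.4 and 33.3 FPKM at 3 days, and at 29.3, 35.5, 16.5, 8.17 and 8.08 FPKM at 7 days. Only replicate 2 of day 7 overlapped with the 1-day and 3-day libraries, and replicates 4 and 5 of day 7 were lowest of the 15. The mean was 19.5 ± 12.5 FPKM at 7 days and 58.4 ± 23.2 FPKM at 1 day (SD, n = 5 each). Slc4a4 fell by 1.67 ± 0.40 on the log2 scale, to 0.315 times the 1-day level (SE, adjusted p = 0.00673, edgeR, all 18 libraries). It was the 1 member of 5 called in this comparison, in which 25.6% of all tested genes were called. The fall was also called with each library left out in turn.

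Most of the Slc4a4 difference lay between 3 and 7 days. Its log2 fold change between 7 and 3 days was -1.53 ± 0.40, short of the threshold in the fit of all 18 libraries (adjusted p = 0.0694, edgeR) and past it without those labelled 14 days (-1.53 ± 0.41, adjusted p = 0.0345, edgeR). Between 3 and 1 day it was -0.14 ± 0.39 (adjusted p = 0.889, edgeR). No member was called at 3 against 1 day or at 7 against 3 days in the fit of all 18 libraries, where 2.27% and 1.05% of tested genes were called (330 and 152 genes; 2624 and 2726 at an unadjusted p under 0.05, and 951 and 909 by DESeq2). DESeq2 called 1 member, Slc4a4, at 7 against 3 days. Without the libraries labelled 14 days, 1 member was called in each of these comparisons, against 10.5% and 7.92% of tested genes.

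Against 1 day the proximal markers were not lower at 7 days as a group. Their summed FPKM was 2000 to 4869 at 7 days and 1265 to 3016 at 1 day, and 18 of 23 had a positive log2 fold change, with a median of 0.39. Against 3 days, over which most of the Slc4a4 difference lay, 2 of the 23 markers had a positive log2 fold change at 7 days, with a median of -0.46 and no marker called. Relative to their mean on the log2(FPKM+1) scale Slc4a4 was at -1.96 ± 1.01 at 7 days and 0.34 ± 0.77 at 1 day (SD, n = 5 each), with -0.68 ± 0.67 at 3 days. Its 7-day libraries ran from -3.05 to -0.88 and its 1-day libraries from -0.83 to 1.02, so that they did not overlap on this scale. The marker mean was 6.08 at 7 days and 5.46 at 1 day, which lowers every gene on this scale at 7 days. The share of all genes without overlap on it was not computed. The 3-day libraries of Slc4a4, from -1.86 to -0.23, overlapped with those of 7 days. The part of the lower markers in the difference between 7 and 3 days was not tested. Markers of some other cells were higher at 7 days than at 1 day, where 12.3% of all tested genes were called higher. Of fibroblast, macrophage and tested T and NK cell markers 6 of 7, 5 of 7 and 6 of 6 were called higher. Their median log2 fold changes were 1.42, 1.79 and 2.23. Of tested endothelial, B and plasma cell, smooth muscle and neutrophil markers 1 of 6, 1 of 5, 1 of 5 and 0 of 4 were called higher. The part of these other cells in the Slc4a4 and Car4 differences was not tested.

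**Figure D2:**
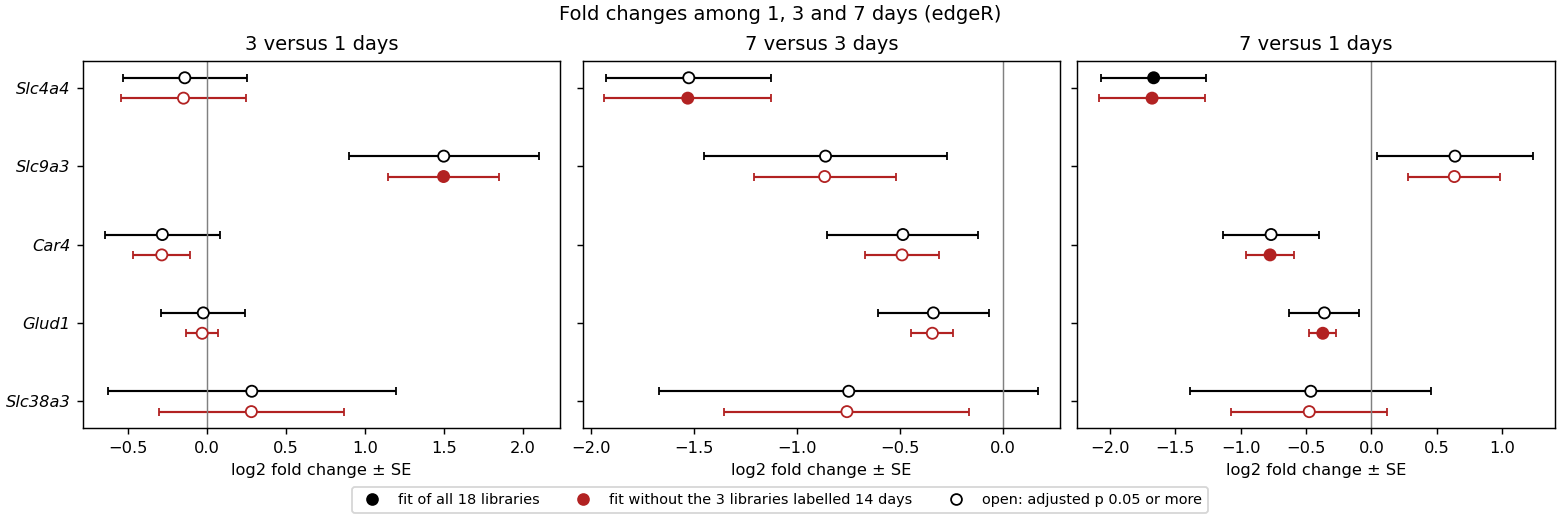
Log2 fold changes (x axis, ± SE) of the 5 genes for 3 versus 1, 7 versus 3 and 7 versus 1 days, fitted with all 18 libraries (black) and without the 3 labelled 14 days (red); filled points passed an adjusted p of 0.05. The estimates hardly differ between the fits, but the SE of Slc9a3, Car4, Glud1 and Slc38a3 is smaller in the second.

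**Figure D3:**
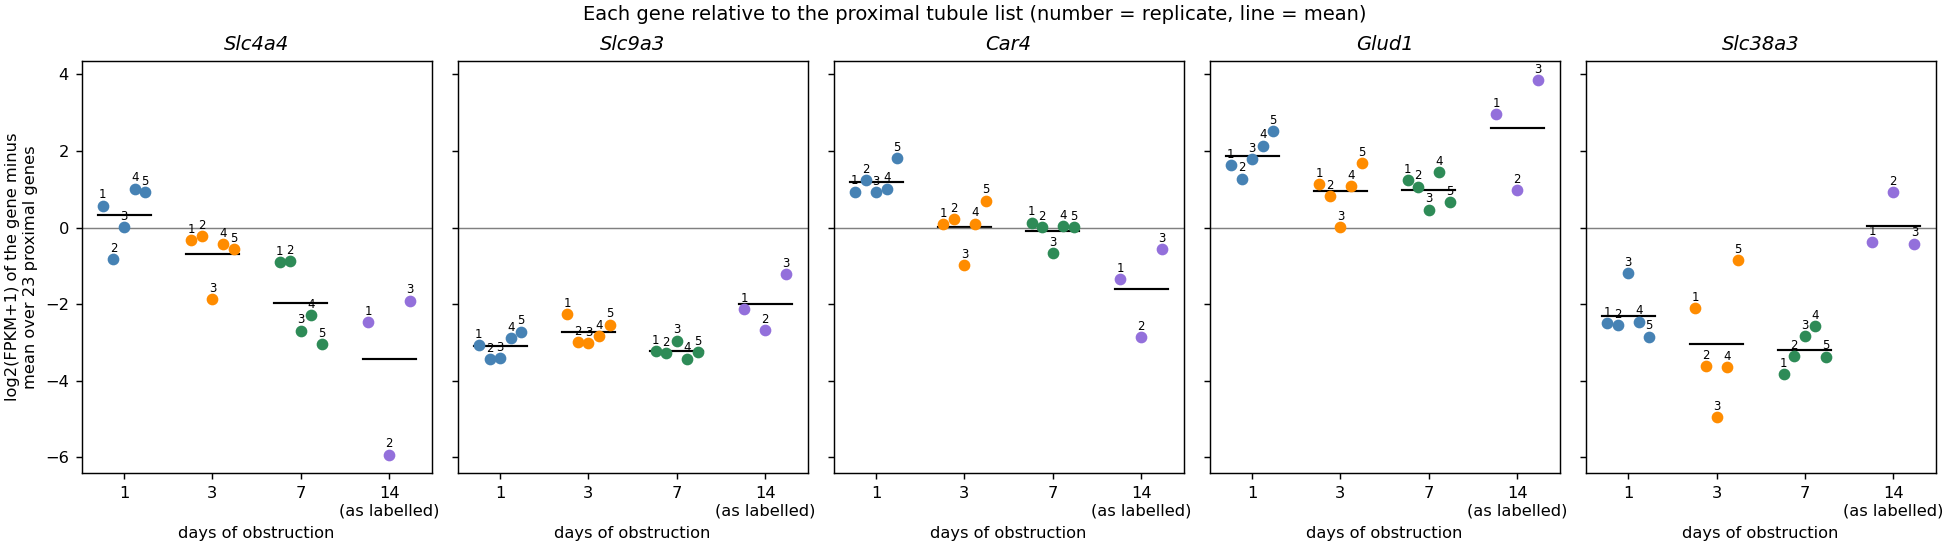
Log2(FPKM+1) of each gene minus the mean over 23 proximal tubule markers (y axis) in every library by duration; points are libraries numbered by replicate and lines are means. Slc9a3 keeps within -3.42 and -2.25 in the first 15 libraries, whereas the mean of Slc4a4 is 0.34, -0.68 and -1.96 at 1, 3 and 7 days.

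Slc38a3, which imports glutamine, had the widest spread of the 5 genes over the first 15 libraries and no difference between durations beyond that spread. It was at 8.37, 9.74, 19.9, 7.00 and 2.30 FPKM in replicates 1 to 5 of day 1, at 16.6, 6.59, 3.78, 5.30 and 26.9 FPKM at 3 days, and at 2.96, 5.60, 14.8, 6.48 and 6.30 FPKM at 7 days. The 3 groups overlapped fully, and the highest of the 15 values was 11.7 times the lowest. The log2 fold changes were 0.28 ± 0.91 for 3 against 1 day, -0.75 ± 0.92 for 7 against 3 days and -0.46 ± 0.92 for 7 against 1 day, with adjusted p of 0.905, 0.738 and 0.749 (edgeR). Without the libraries labelled 14 days the SEs were 0.59, 0.59 and 0.60, and again none passed (adjusted p = 0.794, 0.445 and 0.556, edgeR). With SEs of either size, changes smaller than the spread were not detectable.

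The high Slc38a3 libraries were also high in Mme, the brush-border peptidase neprilysin. Replicate 3 of day 1, replicates 1 and 5 of day 3 and replicate 3 of day 7, the 4 libraries above 10.0 FPKM, had Mme at 75.7, 48.2, 39.7 and 61.0 FPKM, and the remaining 11 libraries had it between 8.03 and 34.4 FPKM. This split was chosen after the values were seen. The amino acid transporter Slc7a13 was at 9.41, 49.4, 38.2 and 54.4 FPKM in those 4 libraries and between 1.53 and 17.2 FPKM in the other 11, so for it the sets overlapped. Slc5a12, a lactate carrier of the early proximal tubule, was at 11.9, 25.2, 7.93 and 22.8 FPKM in the 4 and between 12.6 and 38.7 FPKM in the 11. Among the other members and a short list of tubule genes set against Slc38a3 over the 15 libraries, Mme had the highest Pearson r, 0.82. In a search of 10016 genes, given below, Slc5a10, Gss and Slc22a2 were higher, at 0.93, 0.90 and 0.89. Other proximal markers were at 0.67 (Slc7a13), 0.43 (Kap), 0.07 (Lrp2), -0.07 (Slc34a1), -0.18 (Slc5a2) and -0.55 (Slc5a12). The mean of the 23 proximal markers was at 0.11. Umod and Slc12a1, genes of the loop of Henle, were at 0.548 and 0.515. Which stretch of the kidney each library sampled was not measured.

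**Figure D4:**
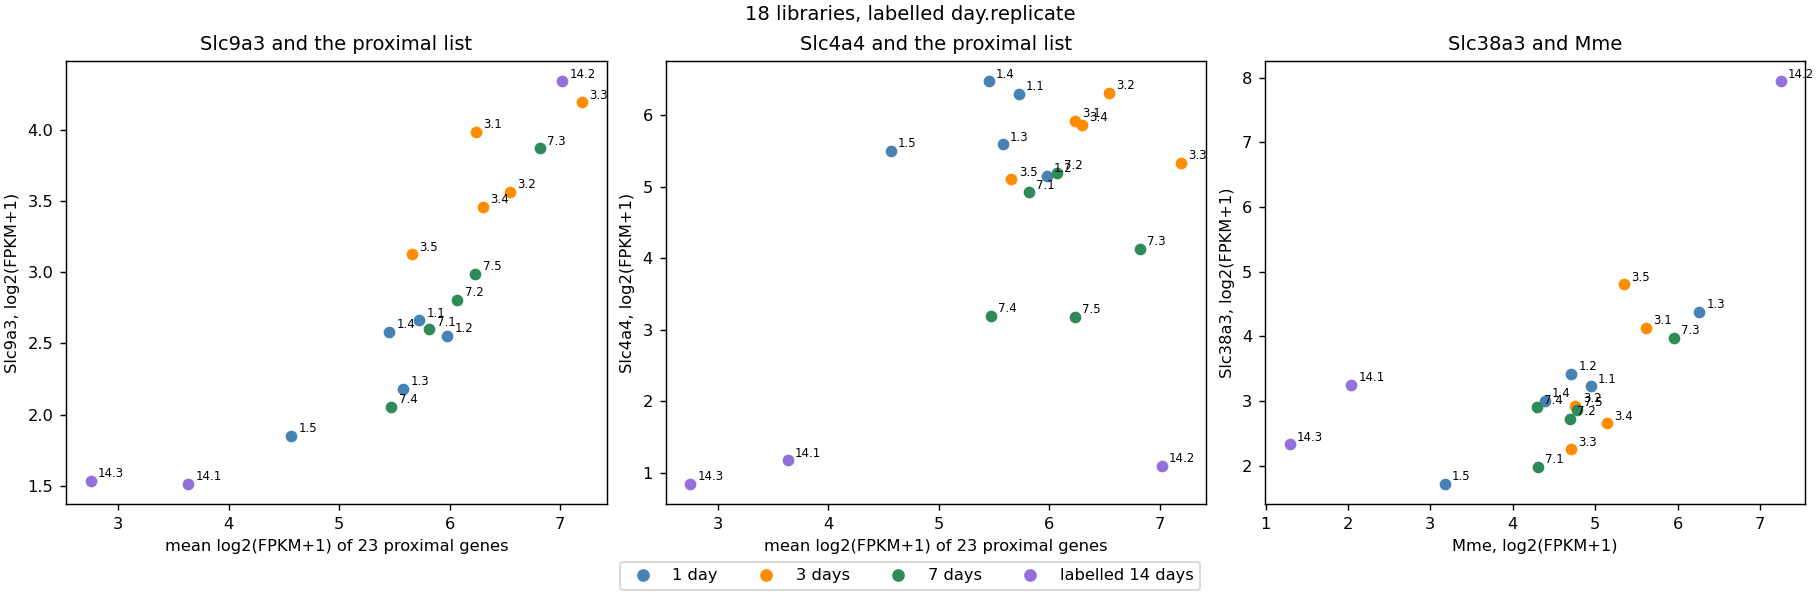
Log2(FPKM+1) of Slc9a3 and of Slc4a4 against the mean of 23 proximal markers, and of Slc38a3 against Mme, in 18 libraries labelled day.replicate and coloured by duration. Replicate 2 labelled 14 days is at 245 FPKM of Slc38a3 and 152 FPKM of Mme but at 1.13 FPKM of Slc4a4.

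Glud1, the glutamate dehydrogenase, was abundant and the steadiest of the 5 genes. Its levels in replicates 1 to 5 were 163, 152, 164, 192 and 135 FPKM at 1 day, 165, 165, 148, 166 and 160.4 FPKM at 3 days, and 131, 140.2, 156, 119.7 and 118 FPKM at 7 days. Over these 15 libraries the highest value was 1.63 times the lowest, against 3.32 times for Car4, 6.62 times for Slc9a3 and 10.9 times for Slc4a4. The groups overlapped, although 4 of the 5 libraries of day 7 were below all 5 of day 3. Glud1 averaged 133 ± 15.5 FPKM at 7 days and 161 ± 20.8 FPKM at 1 day (SD, n = 5 each). This made -0.36 ± 0.27 on the log2 scale (SE, adjusted p = 0.346, edgeR, all 18 libraries). Without the libraries labelled 14 days it was -0.37 ± 0.10 and passed (adjusted p = 0.0102, edgeR). In that fit 3 members were called lower at 7 than at 1 day, Slc4a4, Car4 and Glud1. Of all tested genes 20.2% were called lower there, and 38.2% in either direction. Between 7 and 3 days Glud1 had an adjusted p of 0.0517, just short of the threshold, and 0.0254 with replicate 5 of day 1 left out as well (edgeR).

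In the libraries labelled 14 days Slc4a4 and Car4 were low in every replicate. Slc4a4 was at 1.26, 1.13 and 0.797 FPKM in replicates 1, 2 and 3, from 39, 31 and 25 counts, and Car4 at 3.86, 16.8 and 3.58 FPKM, from 32, 123 and 30 counts. For both genes all 3 libraries were below all 15 of the shorter durations. Against 7, 3 and 1 days taken singly, 26.6%, 19.8% and 20.9% of tested genes were lower without overlap. The share below all 15 at once was not computed. Slc4a4 fell by 3.85 ± 0.57 on the log2 scale against 7 days, by 5.38 ± 0.61 against 3 days and by 5.52 ± 0.61 against 1 day (SE, adjusted p = 0.000142, 2.91e-05 and 2.07e-05, edgeR). Car4 fell by 2.53 ± 0.49, 3.01 ± 0.50 and 3.29 ± 0.51 (adjusted p = 0.00100, 0.000579 and 0.000247, edgeR). Without replicate 2 labelled 14 days the Car4 fold changes were -3.90, -4.41 and -4.69. Slc4a4 was as low in replicate 2, where the proximal sum was the highest of all 18 libraries, as in replicates 1 and 3, where it was the lowest.

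Slc9a3, Glud1 and Slc38a3 split the libraries labelled 14 days, with replicate 2 far above the others. Slc9a3 was at 1.86, 19.3 and 1.90 FPKM in replicates 1, 2 and 3, Glud1 at 95.9, 256 and 96.7 FPKM, and Slc38a3 at 8.50, 245 and 4.04 FPKM. For each of the 3 genes replicate 2 was the highest of all 18 libraries. For Slc9a3 and Glud1 replicates 1 and 3 were below all 15 libraries of the shorter durations, whereas the Slc38a3 values of replicates 1 and 3 lay within the range of those 15. The share of all tested genes with either pattern was not computed, so neither can be read as particular to these genes. Slc38a3 passed the test at 4.14 ± 1.07 against 7 days, 3.40 ± 1.04 against 3 days and 3.68 ± 1.05 against 1 day on the log2 scale (SE, adjusted p = 0.00655, 0.0231 and 0.0145, edgeR). Those calls rest on replicate 2: without it the log2 fold changes were -0.02, -0.78 and -0.50, and none passed. Slc9a3 and Glud1 did not pass in these comparisons with all 3 libraries, but calls appeared in either direction when 1 of them was left out. Without replicate 2 Slc9a3 passed as lower than at 7 and 3 days, at -1.72 and -2.59 (adjusted p = 0.0114 and 0.00106, edgeR), and at -1.09 against 1 day it did not (adjusted p = 0.0902, edgeR). Without replicate 2 Glud1 passed as lower than at 3 and 1 days, at -0.63 and -0.66 (adjusted p = 0.00193 and 0.00151, edgeR), and at -0.28 against 7 days it did not. Without replicate 3 Slc9a3 passed as higher than at 1 day, at 1.77 (adjusted p = 0.0497, edgeR), and Glud1 as higher than at 7 days, at 0.91 (adjusted p = 0.0220, edgeR). Without replicate 1 Glud1 also passed as higher than at 7 days, at 0.88 (adjusted p = 0.0362, edgeR). These fits called many other genes too. Without replicate 2, 7459, 6720 and 6405 of 14852 tested genes were called against 7, 3 and 1 days. Of those calls 52.2%, 51.5% and 50.9% were higher. Without replicate 3, 2625 of 14710 were called higher than at 7 days and 2113 higher than at 1 day. Without replicate 1, 2446 of 14729 were called higher than at 7 days. In the fit of all 18 libraries 3 of 5 members were called against each of 7, 3 and 1 days. The shares of all tested genes called there were 38.3%, 28.4% and 32.0%. The 3 comparisons share the libraries labelled 14 days. The duration and the tissue that those libraries hold cannot be told apart.

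Around the 5 genes, 57 other genes of bicarbonate, acid and glutamine handling were listed, of which 56 were found and 53 tested. Between 7 and 1 day 1 of the 53 was higher and 9 were lower in the fit of all 18 libraries, against 12.3% and 13.3% of all tested genes. The median log2 fold change was -0.15, against 0.01 over all tested genes. The 1 higher gene was Slc26a6, an apical anion exchanger, with a log2 fold change of 0.66 ± 0.19 (adjusted p = 0.0183, edgeR). Of the 9 lower genes, Got1 and Gpt2, aminotransferases that move nitrogen on and off glutamate, were at -1.26 ± 0.23 and -1.20 ± 0.26 (adjusted p = 0.00134 and 0.00384, edgeR). Slc9a8, a sodium-proton exchanger related to NHE3, was at -1.05 ± 0.15 (adjusted p = 0.000243, edgeR). A further 5, named after their values were seen, were Got2, Ogdh, Pck2, Slc3a2 and Atp6v1b2, at log2 fold changes of -0.70, -0.90, -0.53, -0.63 and -0.89.

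Pck1, the cytosolic carboxykinase that draws off the carbon of glutamine for glucose, was variable between libraries. It averaged 334 ± 410 FPKM at 3 days and 51.8 ± 30.7 FPKM at 1 day (SD, n = 5 each), with 1 library of day 3 at 1033 FPKM, and its log2 fold change of 2.72 ± 0.87 did not pass (adjusted p = 0.115, edgeR). At 7 days it was at 88.3 ± 74.3 FPKM. Car2, the cytosolic carbonic anhydrase, was at 282 ± 38.5 FPKM at 7 days and 324 ± 62.2 FPKM at 1 day and did not pass in any pair of the first 3 durations.

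Between 3 and 1 day none of the 53 genes was higher and 2 were lower in the fit of all 18 libraries, Got1 at -1.05 ± 0.23 and the mitochondrial carboxykinase Pck2 at -0.56 ± 0.11 (adjusted p = 0.0294 and 0.0183, edgeR), where 1.16% and 1.12% of tested genes were higher and lower. Between 7 and 3 days only Slc9a8 was called, at -0.68 ± 0.14 (adjusted p = 0.0423, edgeR), with 0.717% of tested genes higher and 0.331% lower. Without the libraries labelled 14 days 10 were higher and 6 lower between 3 and 1 day, against 5.27% and 5.18% of tested genes. Between 7 and 3 days 1 was higher and 7 were lower, against 4.75% and 3.17%, and between 7 and 1 day 9 were higher and 17 lower, against 18.0% and 20.2%. Among the 10 higher at 3 days, chosen for naming after their values were seen, were the brush-border scaffolds Pdzk1 and Slc9a3r1, of which the product of Slc9a3r1, NHERF1, binds NHE3. Their log2 fold changes were 1.45 and 0.68 (adjusted p = 0.0249 and 0.0325, edgeR). The transcription factor gene Hnf4a was at 1.13 (adjusted p = 0.0470, edgeR). Slc9a3 passed in the same fit and comparison, and 2 of the 23 proximal markers did.

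**Figure D5:**
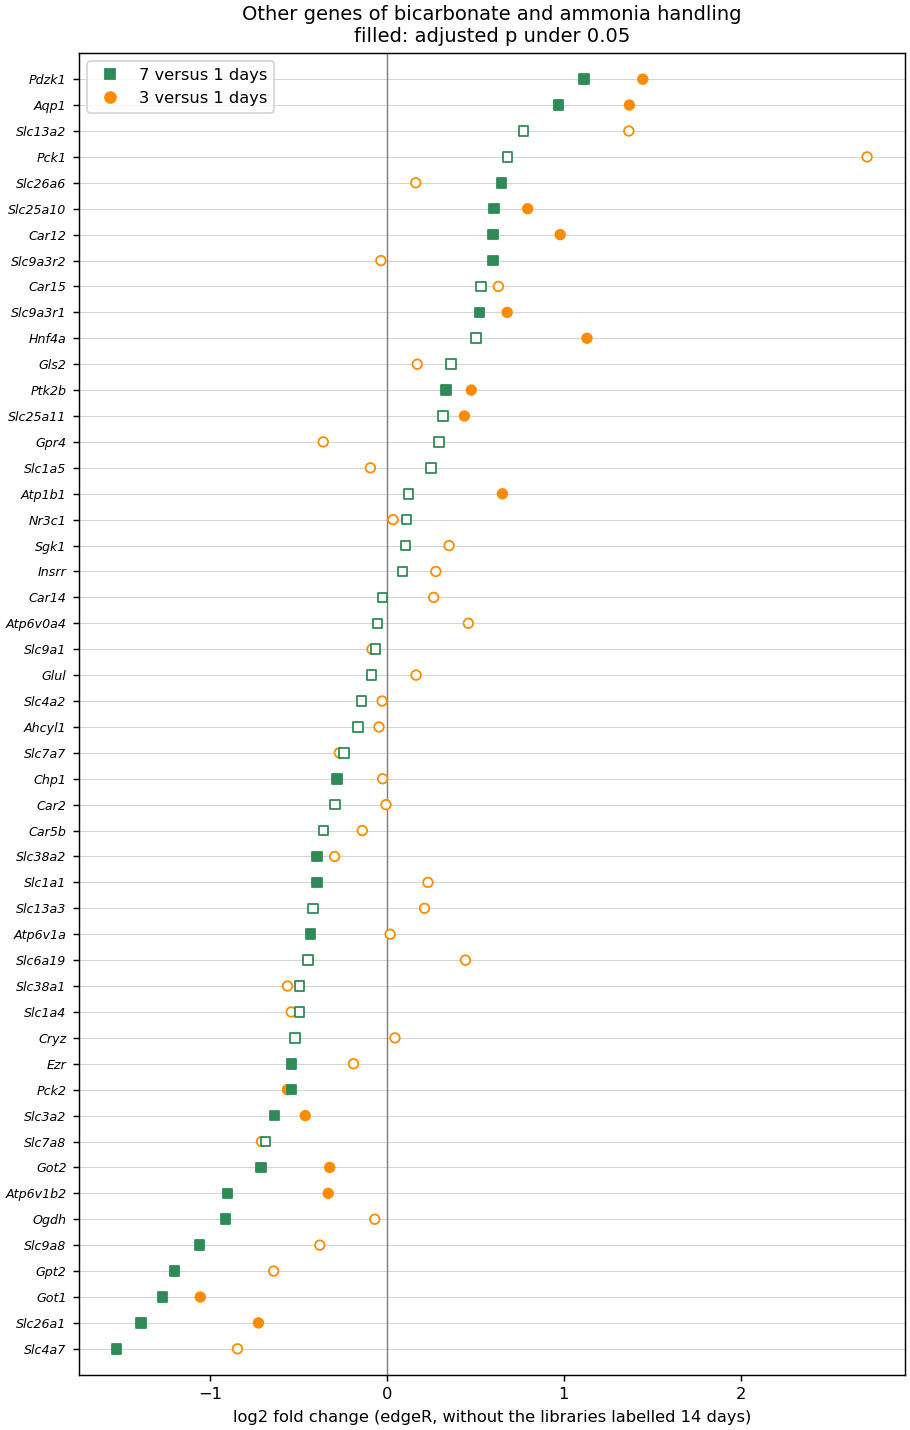
Log2 fold changes (x axis) of 50 of the 53 tested genes of bicarbonate, acid and glutamine handling other than the 5 members, in the fit without the libraries labelled 14 days, for 7 versus 1 days (squares) and 3 versus 1 days (circles), ordered by the first; filled symbols passed an adjusted p of 0.05. Of the 50 plotted genes 8 were called higher and 15 lower between 7 and 1 day.

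In the libraries labelled 14 days, 12 of the 53 genes were higher and 10 lower than at 7 days, 6 and 12 than at 3 days, and 10 and 15 than at 1 day. Of all tested genes 21.4% were higher and 16.9% lower than at 7 days, 15.8% and 12.6% than at 3 days, and 17.7% and 14.3% than at 1 day. The light-chain transporter Slc7a7 and the brush-border amino acid carrier Slc6a19 were lower in all 3 comparisons, in all 3 replicates. Slc7a7 was at 6.09, 2.60 and 16.4 FPKM in replicates 1, 2 and 3, against 98.2 to 195 FPKM at 7 days, a log2 fold change of -3.95 ± 0.46 (adjusted p = 2.2e-05, edgeR). Slc6a19 was at 1.17, 2.15 and 0.478 FPKM, against 6.75 to 18.6 FPKM at 7 days, a log2 fold change of -3.08 ± 0.62 (adjusted p = 0.00134, edgeR). Slc38a1, a relative of Slc38a3, was at 25.0, 1.53 and 21.6 FPKM in replicates 1, 2 and 3 and passed as higher than at 7 days (2.81 ± 0.70, adjusted p = 0.00526, edgeR). Slc38a1 was thus high where Slc38a3 was at 8.50 and 4.04 FPKM, and low where Slc38a3 was at 245 FPKM.

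For each member the 3 genes whose log2(FPKM+1) followed it most closely over the 15 libraries of 1, 3 and 7 days were picked from 10016 genes by Pearson r, as a description of libraries that share durations and proximal content. Slc4a4 was followed by Nacc2, Abca3 and Evi5 (r = 0.95, 0.94 and 0.94). Among those nearest to Slc9a3 were Xpnpep2 and Aldh6a1 (r = 0.92 and 0.92). Car4 had the weakest neighbours, Psat1, Ephx1 and Nkain1 (r = 0.87, 0.85 and 0.85), and over all 18 libraries the r of Psat1, Ephx1 and Nkain1 was -0.04, -0.10 and 0.91. Tmbim6, Ablim3 and Wdtc1 came closest to Glud1 (r = 0.94, 0.92 and 0.91). The genes nearest to Slc38a3 were Slc5a10, a sugar transporter, Gss, the glutathione synthetase, and Slc22a2, the organic cation transporter OCT2 (r = 0.93, 0.90 and 0.89).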

How the data were processed

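Per the labels' protocols, libraries were made from RNA enriched on oligo-dT beads. The submitters' processing notes name fastp 0.19.7 and HISAT2 2.0.4. The counter, strand setting and build: not given in the sources used here. Overlapping and antisense genes may therefore share reads. The authors deposited raw read counts for each gene in each library, as the file headers name them. The deposited FPKM equalled the count over a single length per gene and the library total (checked on 8250 genes with at least 50 counts in every library).

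Libraries were grouped by their labels. Counts were filtered with filterByExpr (min.count 10), scaled by TMM and tested with edgeR 4.0.16 in R 4.3.3 (quasi-likelihood), with 1 coefficient per duration over the 18 libraries and 14511 genes. A gene was called when its Benjamini-Hochberg adjusted p over all tested genes was under 0.05, and the SE is the log2 fold change over the square root of F. Precision rests on the counts given and on 3 to 5 libraries a group.

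Alternatives were RLE factors, library size only, no filter, DESeq2 1.42.0, limma 3.58.1 on log2(FPKM+1) and log2(FPKM+0.1), the groups compared alone, no libraries labelled 14 days, the replicate number as a block and each library left out. Leaving out replicate 5 of day 1 together with the libraries labelled 14 days was added after seeing the data.

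The members, the lists and the rule for names were chosen with earlier results of these data known. From the list of 57 genes the rule took, per comparison, up to 3 called genes with the largest positive and 3 with the largest negative fold change, and a few fixed genes, Pck1 and Car2 among them, for the first 3 durations. The text names part of these, and a few genes that these rules took are not reported here, though counts include them. For likeness it took 3 genes per member with a mean of at least 5 FPKM. Proximal and other markers came from 21 further lists, of which those that touch a member's result are given.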

Additional observations from a re-analysis of the deposited data

Results flagged for a closer look

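In 75 groups of 5 libraries (the 5 members and the genes named around them at 1, 3 and 7 days), 6 held a library whose gap to its nearest neighbour was over 0.71 of the group's range, and about 1 group in 20 would be so by chance. Car4 was at 147.4 FPKM in replicate 2 of day 1, against 81.96 to 100.6 FPKM in the other 4. Replicate 5 of day 1, which stood apart by its collecting duct and adipocyte markers, was the high library for Slc4a7, a bicarbonate cotransporter (9.921 FPKM, others 1.571 to 2.58), for the scaffold gene Slc9a3r2 (29.66 FPKM, others 12.48 to 17.38) and for the amino acid transporter Slc38a1 (11.29 FPKM, others 1.215 to 1.674). Slc4a7 was also high in replicate 1 of day 3, at 4.393 FPKM against 1.182 to 1.933. Slc7a8, an amino acid transporter, was low in replicate 1 of day 7, at 8.522 FPKM against 16.02 to 18.54.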

How the results depend on the processing

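Of the alternatives run on the 5 genes, 25 values changed sign, 24 passed the threshold where the reported value did not and 14 no longer passed. No member was called at 3 against 1 day, and 1 was with the 2 groups alone, without the libraries labelled 14 days and with replicate 5 of day 1 left out too (0 to 1 with each library left out). At 7 against 3 days 0 became 1 with DESeq2, 2 with the 2 groups alone, 1 without the libraries labelled 14 days and 2 without replicate 5 of day 1 as well (0 to 1). At 7 against 1 day 1 became 3 in the last 3 of these settings (1 to 3). In the comparisons with 7, 3 and 1 days, the 3 calls of the libraries labelled 14 days became 1 each with DESeq2, which gave no p for Car4 and Slc38a3, and were 3 to 4, 2 to 4 and 3 to 4 with each library left out. Replicate 2 labelled 14 days was the library behind the calls gained among the first 3 durations, with replicate 2 of day 7 for Slc4a4 at 7 against 3 days.

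Changes of sign at 3 against 1 day were Slc4a4 at 0.0522 and Glud1 at 0.0441 without replicate 4 of day 1, Glud1 at 0.0030 and 0.0031 with limma at either pseudocount, and Slc38a3 at -0.2794 without replicate 5 of day 3. Slc38a3 was at 0.0067 at 7 against 1 day without replicate 3 of day 1. The most these genes reached the other way with a library left out was -0.326, -0.0922 and 0.7554 for Slc4a4, Glud1 and Slc38a3 at 3 against 1 day and -0.9315 for Slc38a3 at 7 against 1 day; Glud1 at 3 against 1 day was at -0.0979 without replicate 5 of day 1 and the libraries labelled 14 days. Without replicate 2 labelled 14 days, Slc9a3 was at -1.718 and -1.094 against 7 and 1 days, Glud1 at -0.2777, -0.6318 and -0.6579 and Slc38a3 at -0.0159, -0.7816 and -0.5006 against 7, 3 and 1 days. Slc9a3 against 3 days was at 0.2628 and 0.2709 without replicate 1 or 3 of that group. The far ends with a library left out were 1.143, -2.592 and 1.768 for Slc9a3, 0.9104, 0.561 and 0.5344 for Glud1 and 4.695, 3.963 and 4.215 for Slc38a3 against 7, 3 and 1 days. With limma at pseudocounts of 1 and 0.1, Slc9a3 was at -0.4003 and -0.5735 against 7 days and, at 0.1, at -0.0004 against 1 day, and Glud1 was at -0.2654 and -0.2679 against 3 days and -0.2623 and -0.2648 against 1 day. With library size only Glud1 was at -0.1033 and -0.1081 there. The cause of these changes was not tested. Against 7, 3 and 1 days the median log2 fold change of all genes was -0.235, -0.172 and -0.167 with library size only. With limma at a pseudocount of 1 it was -0.258, -0.196 and -0.187, and in the reported fit 0.073, 0.070 and 0.056.

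Over all genes, the share of calls that were higher at 3 against 1, 7 against 3 and 7 against 1 days was 50.9%, 68.4% and 48.1%, and 68.0%, 92.0% and 64.0% with library size only. For the libraries labelled 14 days it was 55.8%, 55.7% and 55.3% against 7, 3 and 1 days, and 23.5%, 26.0% and 29.2% with library size only. Calls at 3 against 1 and 7 against 3 days numbered 330 and 152, against 219 and 50 with library size only, 171 and 64 without the filter, 951 and 909 with DESeq2 and 1203 and 981 with the 2 groups alone. The calls of the libraries labelled 14 days fell to 3153, 1851 and 1628 with the 2 groups alone.

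Libraries with the same replicate number deviated together in 10 of 24 pairs (r from -0.424 to 0.395, over 0.1 counted). Pairs of different number ran from r = -0.643 to 0.526. Whether libraries of the same number belong together cannot be settled by these values. With the replicate number as a block Slc38a3 was at 3.293, 2.422 and 2.812 against 7, 3 and 1 days and no longer passed, and no other member's call changed. Depth limits Slc4a4 and Car4 most, with as few as 25 and 30 counts in libraries labelled 14 days.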

Other observations

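A pair of further genes of proximal anion and acid handling, singled out after their values were seen, passed at 7 against 1 day, Slc26a1 as lower and Car12 as higher, in the fit without the libraries labelled 14 days. In the fit of all 18 libraries neither passed (adjusted p = 0.0618 for Slc26a1 and 0.343 for Car12, edgeR). Slc26a1, a basolateral sulfate and anion exchanger, averaged 76.4 ± 21.8 FPKM at 1 day, 46.8 ± 5.16 FPKM at 3 days and 31.0 ± 7.59 FPKM at 7 days (SD, n = 5 each), and its log2 fold change between 7 and 1 day was -1.39 (adjusted p = 0.000347, edgeR). Car12, a carbonic anhydrase of the basolateral membrane, averaged 88.4 ± 15.9 FPKM at 1 day, 176 ± 46.4 FPKM at 3 days and 143 ± 16.0 FPKM at 7 days, with log2 fold changes of 0.98 at 3 and 0.60 at 7 days against 1 day (adjusted p = 0.00623 and 0.0194, edgeR). At 7 against 3 days Car12 was at -0.38 and Slc26a1 at -0.67, and neither passed in that fit (adjusted p = 0.200 and 0.0741, edgeR).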
